A study of Homo sapiens with 14 samples.

Results

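The adenylyl cyclases are the enzymes that make cyclic AMP (cAMP) from ATP, and they were followed here through the footprints of ribosomes on their messages. The family was taken as the 10 gene symbols ADCY1 to ADCY10, all of which stood among the 19440 symbols of the count files. It was selected on measured values, namely IP against input in each cell line, so the IP/input values of its members are given as a description without a test. Of the 10 messages, 6 passed the filter on low counts, which kept 9458 messages in all. ADCY1, ADCY3, ADCY5, ADCY6, ADCY7 and ADCY9 passed it, and ADCY2, ADCY4, ADCY8 and ADCY10 did not.

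ADCY1 to ADCY9 are membrane proteins with a pair of blocks of transmembrane segments, each followed by a cytosolic catalytic domain, and the catalytic domains join to form the active site. They are made on ribosomes at the endoplasmic reticulum (ER). G protein-coupled receptors switch them on through the stimulatory G protein alpha subunit and off through the inhibitory ones, and the resulting cAMP acts on protein kinase A, on exchange factors and on ion channels. ADCY10 is the soluble member, which answers to bicarbonate and has no membrane blocks.

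The libraries came from Flp-In T-REx 293 cells, a derivative of the human embryonic kidney line HEK293 in which a transgene is switched on by doxycycline. All lines received doxycycline for 72 h, at 0.5 to 1.0 ng/mL. One line expressed 3Flag-EMC6 in EMC6 knockout cells, and the other lines expressed 3Flag-EMC7 or 3Flag-EMC10, with no knockout named in their labels. These baits are subunits of the ER membrane protein complex (EMC), which inserts transmembrane segments into the ER membrane. From each line, the material held by Flag beads (IP) and the solubilized microsomes it was taken from (input) were profiled, with n = 2 IPs and 2 inputs for EMC6, n = 2 and 2 for EMC7 and n = 3 and 3 for EMC10. Whether a line is 1 clone is not stated in the labels. An IP from cells lacking any tagged bait was not among the libraries, so binding through the EMC cannot be told apart from other retention on the beads.

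Counts on genes came to 515302 to 960279 per IP and 1692490 to 1835892 per input in the EMC6 line, and to 1335235 to 2248591 per IP and 2397165 to 3395114 per input in the other lines. Each bait message was far above its input in its own line, with log2 changes of 7.54 ± 0.25 for EMC6, 5.71 ± 0.28 for EMC7 and 7.31 ± 0.18 for EMC10 (SE, edgeR fit). Of 6 markers used for HEK293, VIM stood at 800 to 1029 CPM (counts scaled to library size) in the inputs, NEFL at 61.9 to 108, INA at 16.3 to 45.9 and LIN28B at 3.96 to 10.1. NEFM had at most 1 count per input and PAX2 at most 9. The leukocyte, liver and endothelial markers PTPRC, ALB, PECAM1 and CDH5 were at 0 in every library, whereas the epithelial marker EPCAM stood at 206 to 521 CPM in the inputs and the fibroblast markers COL3A1 and COL1A1 at 7.19 to 42.3 and 2.25 to 12.0. CD3E and APOA1 had 1 count each in all. The summed CPM of 12 such markers ran from 224 to 708 in IPs and from 224 to 568 in inputs, with 9 of them at 0 in every IP and 6 at 0 in every input.

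The family took 0.137% to 0.236% of the gene counts in the IPs and 0.0285% to 0.0478% in the inputs, and the ranges did not overlap. In normalised values its messages summed to 2063 ± 591 CPM in EMC6 IPs, against 235 ± 85.3 CPM in EMC6 inputs (SD, n = 2 each). The sums were 2546 ± 190 CPM in EMC7 IPs and 348 ± 41.4 CPM in EMC7 inputs (SD, n = 2 each). In the EMC10 line they were 2379 ± 153 CPM in IPs and 326 ± 34.8 CPM in inputs (SD, n = 3 each). CPM are scaled with TMM factors (trimmed mean of M-values). A footprint count mixes the amount of a message with the number of ribosomes on it, and fewer translating cells cannot be told apart from fewer footprints per cell. It also grows with coding length, which was not used here, so no cyclase is ranked above another by its CPM.

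ADCY3, the cyclase of olfactory neurons and of primary cilia (chromosome 2, 24819169 to 24920237, GRCh38), carried the most footprint counts, 11327 over the 14 libraries. It had 826 and 1132 CPM in EMC6 IPs, against 77.0 and 129 CPM in EMC6 inputs. In the EMC7 line it had 1236 and 1098 CPM in IPs, against 178 and 153 CPM in inputs. With EMC10 it had 1007, 1158 and 1183 CPM in IPs, against 134, 153 and 163 CPM in inputs. Every IP lay far above every input, and in the EMC6 line the first replicate was the lower one in both fractions. The fitted log2 change of IP over input was 3.25 ± 0.21 with EMC6, 2.81 ± 0.20 with EMC7 and 2.90 ± 0.16 with EMC10 (SE). Its gene overlaps CENPO, a centromere protein gene with 0 to 14 counts per library, and the strand setting of the counting is not known.

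ADCY6 (chromosome 12, 48766194 to 48789974) belongs with ADCY5 to the cyclases that inhibitory G alpha subunits and calcium turn down. It had 423 and 759 CPM in EMC6 IPs, against 53.2 and 87.9 CPM in EMC6 inputs. In the EMC7 line it had 767 and 679 CPM in IPs, against 95.2 and 82.4 CPM in inputs. The EMC10 IPs had 617, 649 and 637 CPM, against 77.4, 95 and 94.6 CPM in the inputs. The IPs of EMC10 were close to each other, whereas those of EMC6 were spread apart. Its log2 change was 3.08 ± 0.23 with EMC6, 3.02 ± 0.22 with EMC7 and 2.83 ± 0.18 with EMC10 (SE).

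ADCY9 (chromosome 16, 3953387 to 4116442) is widely expressed and is the member least sensitive to the plant compound forskolin. It had 252 and 369 CPM in EMC6 IPs, against 36.5 and 54.1 CPM in EMC6 inputs. In the EMC7 line it had 485 and 495 CPM in IPs, against 80.3 and 64.7 CPM in inputs. With EMC10 it had 447, 455 and 514 CPM in IPs, against 58.9, 66.8 and 76.6 CPM in inputs. Its IP values were lower in both EMC6 libraries than in any IP of the other lines, and so were its inputs. The log2 change was close to the same in the 3 lines, at 2.79 ± 0.22 with EMC6, 2.75 ± 0.20 with EMC7 and 2.81 ± 0.17 with EMC10 (SE).

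ADCY7 (chromosome 16, 50244699 to 50318135), a cyclase of blood cells that G beta-gamma can raise, was measured with 1135 counts over the 14 libraries. It had 95.3 and 156 CPM in EMC6 IPs, against 5.79 and 14.0 CPM in EMC6 inputs. In the EMC7 line it had 130 and 83.6 CPM in IPs, against 14.9 and 14.5 CPM in inputs. With EMC10 it had 91.5, 142 and 95.5 CPM in IPs, against 12.5, 16.5 and 13.7 CPM in inputs. The lowest of these inputs was the first EMC6 input. The log2 change was 3.68 ± 0.32 with EMC6, 2.88 ± 0.29 with EMC7 and 2.95 ± 0.23 with EMC10 (SE), and the first of these was 4.58 without EMC6 input 2. ADCY7 overlaps BRD7, a bromodomain gene with 3 to 45 counts per library.

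ADCY1 (chromosome 7, 45574140 to 45723116), the calcium and calmodulin-stimulated cyclase of the brain, was rarer still with 451 counts. It had 16 and 51 counts in EMC6 IPs, against 5 and 20 counts in EMC6 inputs. In the EMC7 line it had 79 and 49 counts in IPs, against 31 and 13 in inputs. With EMC10 it had 31, 50 and 41 counts in IPs, against 16, 32 and 17 in inputs. Once scaled, these gave 29.9 to 56.8 CPM over the 7 IPs and 1.81 to 7.21 CPM over the 7 inputs, with no overlap. The log2 change was 3.35 ± 0.40 with EMC6, 3.19 ± 0.33 with EMC7 and 2.97 ± 0.29 with EMC10 (SE). The EMC6 value rests on few counts, and it was 2.72 without EMC6 input 1, 4.72 without input 2 and 2.75 without IP 2.

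ADCY5 (chromosome 3, 123282296 to 123449090), a cyclase of heart and striatum, lay at the edge of detection. It had 10 and 8 counts in EMC6 IPs, against 1 and 10 counts in EMC6 inputs. In the EMC7 line it had 8 and 5 counts in IPs, against 7 and 1 in inputs. With EMC10 it had 3, 9 and 6 counts in IPs, against 3, 7 and 0 in inputs. The filter asked for 5.52 CPM, before TMM factors, in at least 2 libraries. ADCY5 reached that in the 2 EMC6 IPs alone and in 0 inputs, so it was tested only through the fraction in which it was high. Its log2 changes of 2.68 ± 0.74, 2.31 ± 0.84 and 2.84 ± 0.72 with EMC6, EMC7 and EMC10 (SE) carry that choice. Leaving out 1 library moved them widely, to 1.87 without EMC6 input 1 and 5.03 without EMC6 input 2 with EMC6. With EMC7 the value was 3.88 without input 1 and 1.72 without input 2 of that line, and with EMC10 it was 3.81 without EMC10 input 2. ADCY1 reached the same level in 7 IPs and 4 inputs, and ADCY3, ADCY6, ADCY7 and ADCY9 in all 14 libraries.

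The remaining members were at or near 0. ADCY2 (chromosome 5, 7396138 to 7830081), which G beta-gamma raises, had 1 count in all, in EMC10 IP 3. ADCY4 (chromosome 14, 24318359 to 24335071), of the same group, had 1 count, in EMC6 IP 2. ADCY8, which calcium and calmodulin stimulate, and ADCY10 (chromosome 1, 167809386 to 167914134) had 0 of 28790433 counts, which allows up to 0.104 CPM each, before TMM factors. Such limits cover counting error only. The soluble member thus gave no value against which the membrane members could be set.

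**Figure D1:**
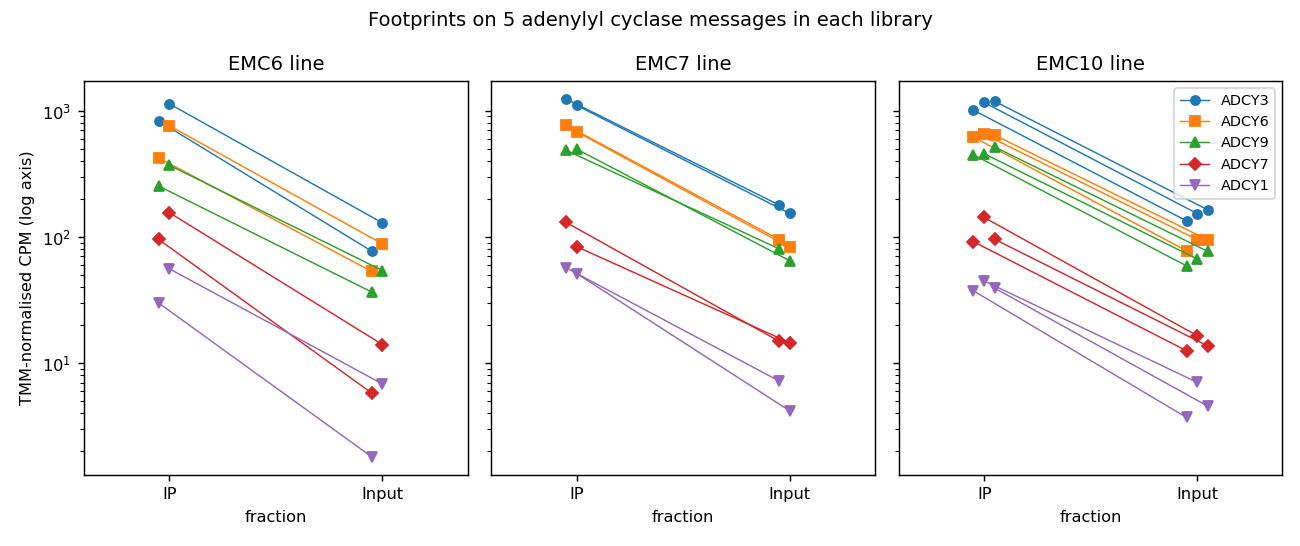
TMM-normalised CPM (log axis) of ADCY3, ADCY6, ADCY9, ADCY7 and ADCY1 in each library, IP on the left and input on the right of each panel, with a line joining the IP and input of the same replicate. In the EMC6, EMC7 and EMC10 panels every line is higher at its IP end than at its input end, and ADCY3 IPs lie between 826 and 1236 CPM.

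Set beside the other messages, 6 of the 6 cyclases tested passed the threshold upward in each line. The share of all tested messages that did so was 17.6% with EMC6, 20.4% with EMC7, 19.9% with EMC10 and 23.7% for the average of all lines. Since the family was chosen on this comparison and ADCY5 passed the filter only through IPs, nothing is read from that count. It was 5 in the EMC7 line with library size alone, with scaling on ER luminal proteins and without IP 1, IP 2 or input 2 of that line. It was 5 also in the EMC6 line without input 1 or IP 1, and in the EMC7 and EMC10 lines when fitted alone. The median log2 change of the 6 was 3.16 with EMC6, 2.85 with EMC7 and 2.87 with EMC10, whereas the median of all 9458 messages was -0.12, -0.14 and -0.17. Averaged over the 3 lines, the members stood at 3.17 ± 0.16 for ADCY7, 3.17 ± 0.20 for ADCY1, 2.99 ± 0.11 for ADCY3, 2.98 ± 0.12 for ADCY6, 2.78 ± 0.11 for ADCY9 and 2.61 ± 0.45 for ADCY5 (SE). These values lie between the 96.9th and the 98.7th percentile of all messages. ADCY7 and ADCY1 nearly coincided, as did ADCY3 and ADCY6, and the order of the members was not tested. With library size alone in place of TMM, which put the median of all messages at -1.13, the members' mean log2 changes ran from 1.68 (ADCY5) to 2.22 (ADCY1 and ADCY7).

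Each IP was purified from an input that carries its replicate number, so each pair gives a change of its own. Over the 7 pairs the log2 change of ADCY3 ran from 2.79 to 3.41 with a median of 2.90. ADCY6 ran from 2.74 to 3.10 (median 2.98) and ADCY9 from 2.58 to 2.92 (median 2.75). ADCY7 ran from 2.46 to 3.86 (median 3.05) and ADCY1 from 2.53 to 3.53 (median 2.89). The messages with many counts thus stayed within a narrow band, and the rarer ADCY7 and ADCY1 spread more widely. Among these 5, ADCY7 was the highest in 4 pairs and ADCY1 in 3, and the lowest was ADCY9 in 3 pairs, ADCY7 in 3 and ADCY1 in 1.

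**Figure D2:**
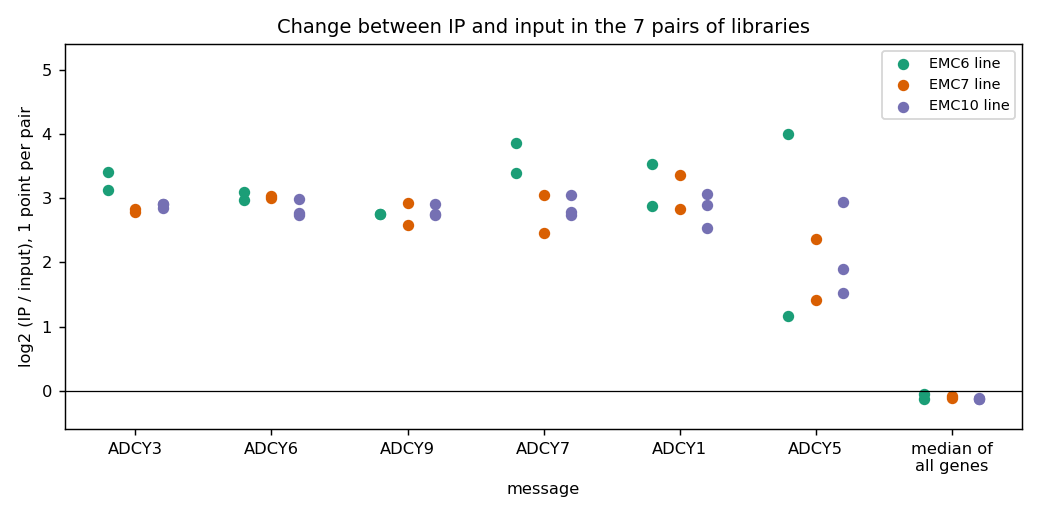
Log2 of IP over input (y axis) for 6 cyclases and for the median of all messages (x axis), 1 point for each of the 7 pairs, coloured by line, with 2 counts added in proportion to library size before the logarithm. ADCY6 stays between 2.74 and 3.10, whereas the median of all messages lies just below 0.

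The make-up of the family's footprints was much alike in both fractions. ADCY3 made up 46.9% ± 1.7 of the family's counts in IPs and 45.9% ± 1.6 in inputs (SD, n = 7 each). ADCY6 made up 27.6% ± 1.8 in IPs and 27.6% ± 2.0 in inputs. The ADCY6 means coincided, whereas ADCY3 was higher in the IP in 4 of 7 pairs, with ranges of 45.5% to 50.2% in IPs and 43.7% to 48.0% in inputs. ADCY9 made up 18.3% ± 2.4 in IPs and 20.4% ± 1.1 in inputs, and was lower in the IP in 6 of 7 pairs, by 2.04 percentage points on average. ADCY7 made up 4.89% ± 1.09 in IPs and 4.23% ± 0.55 in inputs, and ADCY1 1.92% ± 0.25 in IPs and 1.6% ± 0.49 in inputs. These shares are of counts, not per length, and serve only to set the same message against itself in the other fraction.

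The shift in the share of ADCY9 was widest in the EMC6 line. Its own log2 change there (2.79) was close to that with EMC7 (2.75) and EMC10 (2.81). A share also falls where other members rise more, and ADCY3 stood at 3.25 and ADCY7 at 3.68 with EMC6. In the EMC6 line the share of ADCY9 was 15.3% and 14.9% in the IPs, with exact 95% binomial intervals of 13.0% to 17.9% and 13.4% to 16.4%. In the EMC6 inputs it was 20.9% and 18.3%, with intervals of 17.4% to 24.8% and 15.8% to 21.1%, which cover counting error only. In the other lines the share lay between 18.1% and 20.8% in the IPs and between 19.7% and 21.7% in the inputs. The ratio of ADCY3 to ADCY9 counts, free of any scaling between libraries, was 3.27 and 3.07 in EMC6 IPs, against 2.11 and 2.39 in EMC6 inputs. It ran from 2.22 to 2.55 over the other IPs and from 2.13 to 2.37 over the other inputs, so both EMC6 IPs stood above every other library.

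**Figure D3:**
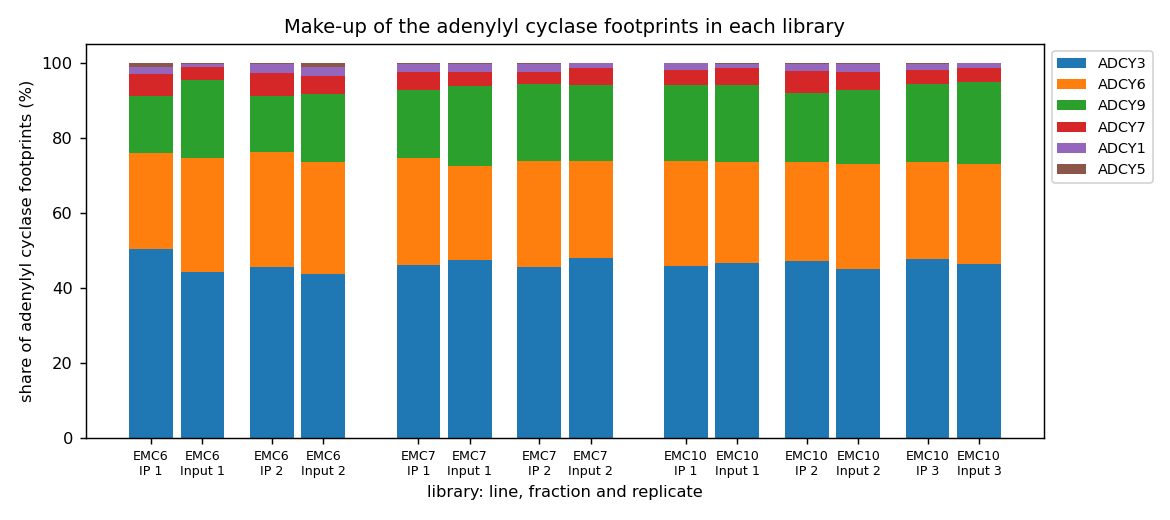
Share of the adenylyl cyclase counts (%) taken by each of 6 cyclases in each library, stacked, with the IP left of the input of the same replicate. ADCY3 takes 43.7% to 50.2% in every library, and the ADCY9 segment is thinnest in the EMC6 IPs, at 15.3% and 14.9%.

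Whether the baits held the cyclase messages to unequal degrees was tested as the difference of the log2 change between lines. The choice of the family did not use that difference. Each bait was in its own line, with a knockout named for EMC6 alone, so bait, line and preparation cannot be told apart. Of the 6 cyclases, 0 differed in any of the comparisons EMC6 with EMC7, EMC6 with EMC10 and EMC7 with EMC10 in edgeR's quasi-likelihood test, and 0 had an unadjusted p under 0.05. DESeq2 also called 0 in each. The share of all messages called was 0.518%, 0.074% and 0.159% in these comparisons. The widest difference was that of ADCY7, 0.81 between EMC6 and EMC7 (95% interval -0.10 to 1.71, edgeR adjusted p = 0.646) and 0.73 between EMC6 and EMC10 (-0.10 to 1.57, adjusted p = 0.812). ADCY3 differed by 0.44 between EMC6 and EMC7 (-0.12 to 0.99, edgeR adjusted p = 0.719) and by 0.35 between EMC6 and EMC10 (-0.15 to 0.86, adjusted p = 0.847). These intervals include 0, so no direction was settled. For ADCY9 the difference between EMC6 and EMC7 was 0.04 (-0.53 to 0.61, adjusted p = 0.989), and that between EMC7 and EMC10 was -0.06 (-0.57 to 0.45, adjusted p = 0.999). For ADCY6 the difference between EMC7 and EMC10 was 0.19 (-0.37 to 0.74, adjusted p = 0.999). The intervals of ADCY1 and ADCY5 were wider, reaching -0.93 to 1.25 and -2.14 to 2.87 between EMC6 and EMC7. ADCY5 passed the filter only through the EMC6 IPs, so its differences between EMC6 and the other baits carry that choice, and nothing is read from them.

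When each IP was paired with its input (replicate block), ADCY3 was called higher with EMC6 than with EMC7. The log2 difference was 0.44 ± 0.13 (SE, edgeR adjusted p = 0.0132), and the blocked fit called 6.31% of all messages in this comparison, against 0.518% without the block. With a term for each pair few libraries are left, yet the blocked interval (0.19 to 0.70) treats the spread as known without error. Its SE was 0.13, against 0.27 without the block, so this p may be too small, which was not tested. The pairs of ADCY3 stood at 3.41 and 3.12 with EMC6, against 2.79 and 2.83 with EMC7, and 2 pairs per line are too few to read their order. ADCY7 stood at 0.76 ± 0.31 in the blocked fit (adjusted p = 0.15). Without EMC6 input 2 both differences were larger in the fit without the block. ADCY3 was then at 1.00 and ADCY7 at 1.73 against EMC7, and they were at 0.90 and 1.64 against EMC10. A single EMC6 input is left there, so nothing is read from its calls. Without any other library 0 cyclases were called. The edgeR p-values measure the spread between these libraries, which may be technical, since separate cultures are not stated.

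**Figure D4:**
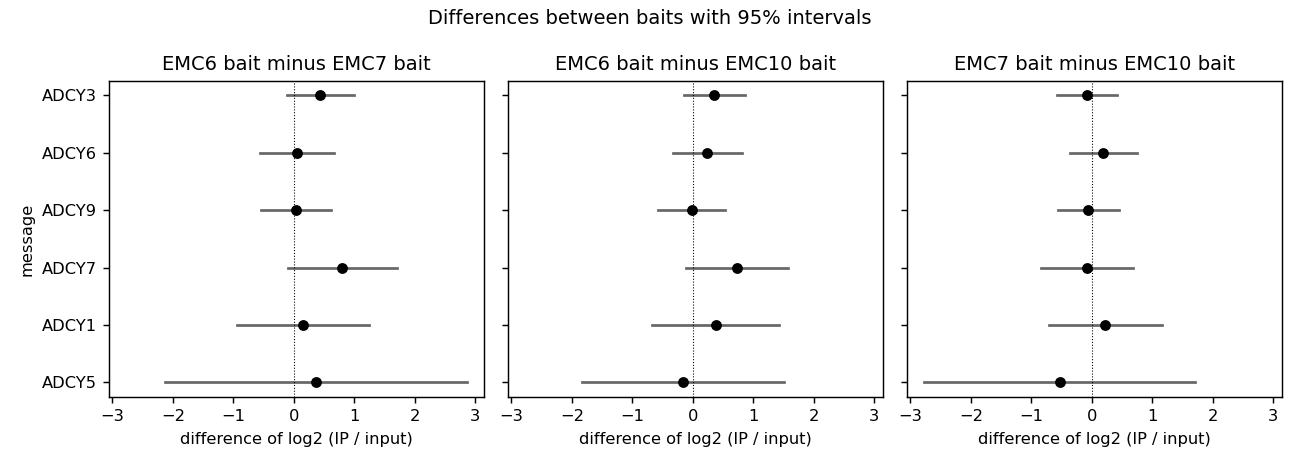
Difference of the log2 IP/input change between baits (x axis) for 6 cyclases (y axis), with 95% intervals from the edgeR fit without a block, in a panel for each pair of baits. Every interval crosses 0, and the points farthest right are ADCY7 at 0.81 and 0.73.

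The level of cyclase footprints in the microsomes before purification was compared between lines, also apart from the rule. In the EMC6 inputs, ADCY3 and ADCY9 were lower than in the mean of the EMC7 and EMC10 inputs. The log2 differences were -0.61 ± 0.17 (SE, edgeR adjusted p = 0.00457) for ADCY3 and -0.62 ± 0.18 (adjusted p = 0.00643) for ADCY9. ADCY7 stood at -0.53 ± 0.31 (adjusted p = 0.18), ADCY6 at -0.33 ± 0.19 (0.178), ADCY1 at -0.32 ± 0.39 (0.549) and ADCY5 at 1.03 ± 0.73 (0.287). These 2 of 6 stand beside 37.1% of all messages called in either direction. The direction depends on the scaling, as scaling on ER luminal proteins made ADCY3 (0.51), ADCY6 (0.79) and ADCY9 (0.50) higher in the EMC6 inputs, and library size alone left ADCY3 at -0.31 (adjusted p = 0.0857) and ADCY9 at -0.32 (0.106). The median of all messages in this comparison was 0.07 with TMM, 1.20 with the luminal scaling and 0.37 with library size alone. ADCY3 and ADCY9 lay below it under each of these scalings. With TMM, 56 of the 60 ER luminal messages were themselves lower in the EMC6 inputs, with a median of -0.98.

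The EMC6 inputs also differed from each other. Without EMC6 input 1, ADCY3 stood at -0.31 and ADCY9 at -0.39. Without EMC6 input 2, ADCY7 stood at -1.37, ADCY6 at -0.79 and ADCY1 at -1.63. Each of these fits has a single EMC6 input, so only the log2 differences are given. Counts outside named genes made up 11.5% and 12.5% in the EMC6 inputs, against 4.675% to 5.15% in the other inputs, and their part in the result was not tested. Line and preparation cannot be told apart. Between the EMC7 and EMC10 inputs 0 of 6 cyclases were called and 0 had an unadjusted p under 0.05, with log2 differences up to 0.41 (ADCY5), edgeR adjusted p = 1 for each and 0.0211% of all messages called. DESeq2 called 0 of them as well.

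The proteins that surround the cyclases in the pathway were taken as lists of gene symbols, which earlier results of these data may have shaped. The comparison is IP over input for the mean of the 3 lines, where 23.7% of all messages rose and 26.9% fell. The numbers were 2243 risen and 2547 fallen, against 1135 and 7282 with library size alone and 1596 and 5793 with scaling on ER luminal proteins. The p-values of list members come from edgeR's quasi-likelihood test, adjusted over all messages (Benjamini-Hochberg). Upstream of the cyclases, 6 of 43 receptors that couple to the stimulatory G protein were tested. All 6 rose, with a median log2 change of 1.50, but 3 of them reached the filter's level in fewer than 2 inputs and so had to be high in IPs to be tested. Among these were the serotonin receptor HTR6 (2.62 ± 0.29) and, named after its value was seen, ADCYAP1R1 (1.17 ± 0.31), and nothing is read from the count. ADORA2B, an adenosine receptor, had 60.5 CPM in IPs and 12.8 CPM in inputs, a change of 2.28 ± 0.14 (adjusted p = 8.17e-17). The prostaglandin receptor PTGER4 rose by 1.59 ± 0.28 (adjusted p = 1.1e-05). With library size alone 3 of the 6 rose, and VIPR1, the receptor for vasoactive intestinal peptide, which rose by 1.19 ± 0.21 with TMM, stood at 0.23 (adjusted p = 0.265).

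The G proteins that join receptor to cyclase are peripheral and lipid-anchored. Of 9 tested alpha subunits 3 rose and 0 fell, with a median of -0.04. GNAS, the stimulatory subunit, had 367 CPM in IPs and 377 CPM in inputs, a log2 change of -0.04 ± 0.09 (adjusted p = 0.761). The inhibitory subunits GNAI2 and GNAI3 rose by 0.92 ± 0.13 and 0.34 ± 0.11 (adjusted p = 8.1e-08 and 0.0104), as did the olfactory GNAL by 0.73 ± 0.26 (0.0199), which is named after its value was seen. The inhibitory GNAI1 stood at 0.01 ± 0.13 (adjusted p = 0.949). With library size alone 0 alpha subunits rose and 7 fell, and with scaling on ER luminal proteins 1 rose and 5 fell. Of 7 tested beta and gamma subunits GNG10, named after its value was seen, rose by 0.84 ± 0.33 (adjusted p = 0.0319) and GNB4 fell, at -0.49 ± 0.20 (0.037), and the list's median was -0.29. GNB4 was not called with DESeq2 size factors (-0.40, adjusted p = 0.102) or with DESeq2 (0.168). Scaling by library size alone gave 0 risen and 5 fallen.

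Downstream of cAMP, few of the tested enzymes rose. The hydrolysing phosphodiesterases had 4 of 16 tested, of which PDE3B, an enzyme with a membrane-embedded region, rose. It had 176 CPM in IPs and 38.9 CPM in inputs, a log2 change of 2.2 ± 0.12 (adjusted p = 1.96e-18). PDE4D, a soluble enzyme, stood at -0.39 ± 0.33. It reached the filter's level in 1 IP and 5 inputs, so it was tested mainly through inputs, and no p is given. With library size alone 3 of the 4 fell. These 3 reached the filter's level in fewer than 2 IPs, and nothing is read from that count. Of 6 tested protein kinase A subunits and inhibitors 0 rose, and the regulatory subunit PRKAR1A fell, at -0.57 ± 0.10 (adjusted p = 1.96e-05), with the catalytic PRKACA at 0.11 ± 0.12 (0.481). Under library size alone all 6 fell.

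Among 12 tested A-kinase anchoring proteins, which tether protein kinase A, AKAP1 of the outer mitochondrial membrane rose by 0.49 ± 0.11 (adjusted p = 0.000289) and 6 fell. AKAP12 fell, at -0.74 ± 0.09 (adjusted p = 9.75e-09), and so did the cortical linker EZR, at -0.80 ± 0.10 (1.39e-08). Under library size alone AKAP1 stood at -0.46 and 12 of 12 fell. DESeq2 size factors gave 2 risen and 3 fallen.

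Of 13 other cAMP effectors and targets tested, 5 rose and 3 fell. HCN2, a cyclic nucleotide-gated channel, had 81.3 CPM in IPs and 8.91 CPM in inputs, a log2 change of 3.23 ± 0.15 (adjusted p = 1.07e-20). BVES, a membrane protein that binds cAMP, rose by 1.52 ± 0.12 (adjusted p = 1.29e-13) and CRTC2, a coactivator of the CREB transcription factor, by 1.52 ± 0.13 (3.31e-12). The channel HCN4 rose by 2.1 ± 0.42 (adjusted p = 7.41e-05) and the BVES relative POPDC3 stood at 1.43 ± 0.42. CAP1, a cyclase-associated actin regulator, fell, at -0.60 ± 0.11 (adjusted p = 1.04e-05), with the exchange factor RAPGEF4 at -1.15 ± 0.42 and the coactivator CRTC1 at -1.68 ± 0.41. POPDC3 reached the filter's level in 1 input, RAPGEF4 in 1 IP and CRTC1 in 0 IPs, so each was tested mainly through the fraction in which it was high, and no p is given. HCN4, POPDC3, RAPGEF4 and CRTC1 are named after their values were seen. Library size alone gave 4 risen and 7 fallen.

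Other membrane proteins built from a pair of blocks give a nearer comparison by shape. Of the ABC transporters of this form 4 of 9 were tested and all 4 rose, with a median of 2.73. ABCC4, an exporter of organic anions and of cAMP, had 5372 CPM in IPs and 326 CPM in inputs, a log2 change of 4.06 ± 0.10 (adjusted p = 1.8e-28). ABCC5, ABCB4 and ABCB1 rose by 2.94 ± 0.10, 2.52 ± 0.18 and 2.19 ± 0.09. The relatives of Patched, Dispatched and NPC1, which carry sterol-sensing domains, had 7 of 10 tested and all 7 rose, with a median of 2.30, although 3 of them reached the filter's level in fewer than 2 inputs. PTCH1, the Hedgehog receptor, rose by 2.30 ± 0.12 (adjusted p = 1.48e-18) and the cholesterol exporter NPC1 by 1.19 ± 0.10 (2.43e-13). With library size alone 4 ABC transporters and 6 of the 7 relatives rose.

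The guanylyl cyclases make cyclic GMP with a related catalytic domain. Of the receptor forms, which span the membrane once, 0 of 5 were tested. Of the soluble subunits 1 of 3 was tested, GUCY1B1 at -0.32 ± 0.19 (adjusted p = 0.163). Messages of 60 tested ER luminal proteins had a median of 0.40, and 35 rose and 0 fell, but 6 rose and 39 fell with library size alone. CALR, a lectin chaperone, rose by 1.09 ± 0.10 (adjusted p = 7.29e-11) and HSP90B1 stood at -0.15 ± 0.08 (0.14). Beside these lists the cyclases' own median was 2.98, with all messages at -0.19.

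**Figure D5:**
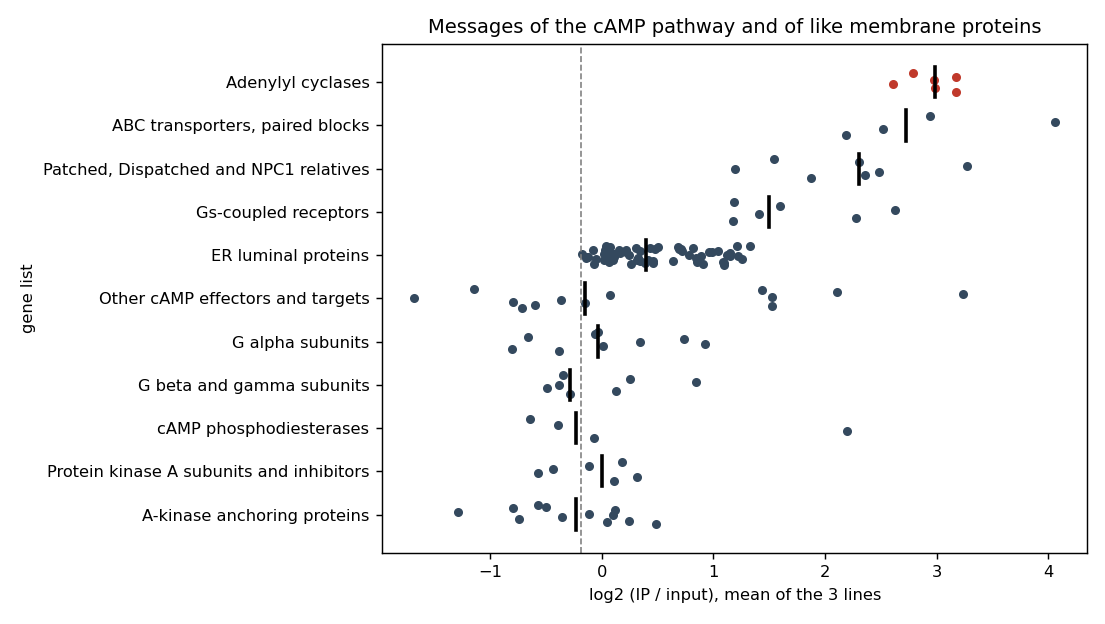
Log2 of IP over input for the mean of the 3 lines (x axis) for each tested message of 11 lists (y axis), with the list median as a black bar and the median of all messages as a dashed line at -0.19. The cyclases in red have a median of 2.98 and the ABC transporters of 2.73, whereas the G protein, protein kinase A and anchoring lists scatter around the dashed line.

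The messages whose profile was most like that of the cyclases were sought among 6329 with a mean of at least 10 CPM, by Pearson's r over the 14 libraries with the centred mean log2 CPM of the 6 cyclases. Among the 5 nearest were the lipid flippase ATP8A1 (0.995), the sodium-proton exchanger SLC9A7 (0.995) and the flippases ATP11B (0.994) and ATP11A (0.994). Over all candidates the median r was -0.23 and the 95th percentile 0.959. All profiles share the same libraries and their split into IP and input, so r is a description here. ATP8A1 had a log2 change of 2.74 ± 0.16 over the mean of the 3 lines, and ATP11A of 3.65 ± 0.13 (SE). Each cyclase set against the mean of the others gave 0.991 for ADCY1, 0.990 for ADCY3, ADCY6 and ADCY7, 0.972 for ADCY9 and 0.833 for ADCY5.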

How the data were processed

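Footprints were extracted from the Flag-bound material and its input in 14 libraries. The authors deposited raw counts of footprints per gene symbol, not normalized. Per the submitters' processing notes, the tools were TopHat2 2.1.0, Bowtie2 2.2.6 and Cutadapt 4.1 and the build was hg38. Not given in the sources used here are the annotation, the strand setting and any removal of duplicates. The binomial intervals cover counting error only, whereas those of edgeR also take in the spread between libraries. The 5 entries that name no gene (9.28% to 12.5% of each EMC6 library and 2.76% to 5.15% of each other library) were left out.

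In R 4.3.3, edgeR 4.0.16 with limma 3.58.1 was fitted to all libraries at once, with a mean per line and fraction, TMM, filterByExpr and the robust quasi-likelihood test, Benjamini-Hochberg adjusted at 0.05 over 9458 genes. DESeq2 1.42.0, other scalings, no filter, a replicate block and leaving out each library were alternatives. The steps were tested on simulated data. Positions come from RefSeq (GRCh38), in which 18968 of 19440 symbols matched.

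The members and lists were chosen with earlier results of these data known. The text names all cyclases, up to 4 messages per list by mean CPM and messages among the 5 most like the family, and some genes are not reported here. Replicates of a group did not match within sampling noise (2.09 to 8.62 chi-square per degree of freedom). IP and input of a number are paired by the labels' batch number. Their deviations from the group means correlated at 0.27 (EMC6), 0.07 (EMC7) and 0.04 to 0.10 (EMC10).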

Additional observations from a re-analysis of the deposited data

How the results depend on the processing

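Wherever they were tested, the 6 cyclases kept a positive IP/input change in each line under every alternative run. Their median above that of all messages ran, with each library left out in turn, from 2.83 to 4.18 with EMC6 (without EMC6 input 1 and input 2), from 2.88 to 3.15 with EMC7, from 2.93 to 3.15 with EMC10 and from 3.04 to 3.43 over the mean. With no filter it was 2.90 with EMC7. Called differences between EMC6 and EMC7 numbered 1 with the replicate block and 0 to 2 with a library left out, and between EMC6 and EMC10 1 with library size alone and 0 to 2 with a library left out. For the EMC6 inputs, 0 cyclases were called with library size alone, 4 with scaling on ER luminal proteins and 0 to 5 with a library left out. The luminal scaling reversed ADCY3 (0.51), ADCY6 (0.79) and ADCY9 (0.50) and called ADCY5 higher (2.12). It also moved the median of all messages from 0.07 to 1.20, so ADCY3, ADCY6 and ADCY9 lay below that median under both scalings. Why the luminal messages were lower in the EMC6 inputs was not tested. The replicate block changed no other call of a cyclase, and it cannot compare inputs between lines. Over all messages, the comparison of EMC6 with EMC7 called 49, against 597 with the block, 132 with DESeq2, 22 with DESeq2 size factors, 216 with library size alone and 186 with the luminal scaling. That of EMC6 with EMC10 called 7, against 211 with the block, 12 with DESeq2 and 494 with library size alone. That of EMC7 with EMC10 called 15, against 414 with the block, 45 with DESeq2, 6 with its size factors, 96 with library size alone and 3 with the luminal scaling. The EMC6 inputs called 3511, against 2763 with DESeq2, 3312 with its size factors, 4886 with library size alone and 7478 with the luminal scaling. In single lines, IPs had 1666 risen and 877 fallen with EMC6, 1930 and 916 with EMC7 and 1885 and 1318 with EMC10, against 990 and 4320, 1001 and 6038, and 760 and 7171 with library size alone. Depth limits ADCY5 and ADCY1, and IPs of the EMC6 line were the shallowest.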

Other observations

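CRTC2, a cytosolic coactivator in the list of cAMP targets, had 62.7 CPM in IPs and 22.2 CPM in inputs, and its log2 change was 1.52 ± 0.13 (SE, edgeR adjusted p = 3.31e-12). Its gene (chromosome 1, 153947675 to 153958612, GRCh38) ends 497 bases before SLC39A1 (153959110 to 153968184), which encodes a zinc transporter of the plasma membrane. SLC39A1 had 980 CPM in IPs and 216 CPM in inputs, with a log2 change of 2.27 ± 0.10 (edgeR adjusted p = 2.42e-21). Whether reads of one were counted on the other was not tested. Within the same list CRTC1 stood at -1.68 ± 0.41 and CRTC3 at 0.07 ± 0.44 (adjusted p = 0.904). CRTC1 reached the filter's level in 0 IPs and 5 inputs and CRTC3 in 1 IP and 1 input, so nothing is read from setting them beside CRTC2.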
